A study of Mus musculus with 16 samples.

Results

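The clustered histone genes are the short genes, grouped on a few chromosomes, that supply most of the histone protein for newly copied DNA. They were taken as the protein-coding genes whose GENCODE M21 symbol begins with Hist1h, Hist2h, Hist3h or Hist4h, and 65 such genes were among the 47643 gene IDs counted in every library. The rule used names only and no measured value, but it was set with earlier results of these data known. By type they comprised 6 H1 genes, 18 H2A genes, 16 H2B genes, 12 H3 genes and 13 H4 genes. On mouse build GRCm38, 52 of them lay on chromosome 13 between positions 21715763 and 23934851 (a span of 2.22 Mb), 10 on chromosome 3 between 96219865 and 96270132, 2 on chromosome 11 and 1 on chromosome 6. Another 2 annotated genes of this kind, Hist1h2bh and Hist1h2bm, were not analysed here.

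H2A, H2B, H3 and H4 form the core particle around which DNA is wrapped, and H1, the linker histone, binds where DNA enters and leaves it. Most transcripts of the clustered genes are made in S phase, carry no poly(A) tail, and end just after a short stem-loop that the stem-loop binding protein SLBP holds during processing and translation. A part of them can instead be cleaved further downstream at an ordinary poly(A) signal, and such tailed forms are described in cells that leave the cell cycle as well as in dividing cells.

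All 16 libraries came from wild type C57BL/6 mice; no gene was altered and no drug is named in the labels. Cells from bronchoalveolar lavage (lung lavage cells, BALF), cells from peritoneal lavage (PLF), macrophages grown from bone marrow (BMDM) and alveolar macrophages grown ex vivo (mexAM) were each sampled from mice 1, 2 and 4. Alveolar macrophages grown from pooled lavage added 4 libraries, which were pool 1 after 8 and after 13 passages and pool 2 after 5 and after 10. The pools are not single animals, 2 passages of a pool share their founding cells, and neither mouse age nor the passage of the mexAM cultures is stated in the labels.

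RNA was read with a 3′ tag method that primes on poly(A) and reads 65 bases near the end of each captured transcript. A count therefore stands for a transcript end, and levels are given as CPM, a gene's counts scaled to a library total of 1000000 counts in genes, with no division by length. Histone transcripts that end at the stem-loop without a tail are largely outside what this priming can capture, so all values below describe captured ends and not total histone mRNA. Libraries held between 827791 and 2884679 counts in genes, so 1 count was worth 0.347 to 1.208 CPM. The share of assigned and unassigned reads that fell outside annotated genes was 10.6% to 15.5% in the 7 cultured alveolar macrophage libraries and 19.9% to 29.9% in the other 9, BMDM included. This measure separates the alveolar macrophage cultures from all other libraries, and its part in the results was not tested. Marker sums matched the labels. The summed level of 7 alveolar macrophage markers was 8279 to 12250 CPM in BALF and 4367 to 5856 in mexAM. It was 3410 to 4845 in the pools and at most 506.2 in PLF and BMDM. Chil3 held most of the BALF sum, at 6550 to 10500 CPM. Siglecf, Car4 and Chil3 were higher in every BALF, mexAM and pool library than in any PLF or BMDM library. Itgax, Pparg, Marco and Fabp4 were not. Itgax was 453 to 497 CPM in BALF, but 40 in mexAM and 53.9 in BMDM of mouse 4. PLF also carried 1791 to 2148 CPM of B cell markers and 1823 to 2010 of mast cell markers, and BMDM 1754 to 4822 of neutrophil markers. In mixed samples fewer cells of a type and less RNA per cell cannot be told apart.

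The annotated 3′ end separated the members. A long 3′ end, here an annotated 3′ UTR of more than 200 bases or a spliced transcript, was present in 24 members, and the other 41 had a short one. The nearest members below that limit were Hist1h2bg with 200 bases and Hist1h2ae with 199, and the nearest above were Hist3h2ba with 213 and Hist1h1t with 230. A match to the 16-base histone stem-loop consensus after the stop codon was found in 42 members, 20 with a long and 22 with a short 3′ end, and it began 22 to 59 bases after the stop codon (median 32.5). Of 40208 mouse protein-coding transcripts with at least 100 bases after the stop, 0.082% had the stem-loop within the first 100 of them. Members were instead searched over all their annotated bases after the stop. The 40208 transcripts include those of members with an end of that length. A poly(A) signal, AATAAA or ATTAAA within the last 50 bases, was searched where the 3′ UTR held at least 50 bases. It was found in 14 of the 24 long-ended members and in 3 short-ended ones. Short-ended members with a shorter 3′ UTR were not searched. Of 42836 mouse protein-coding transcripts with a 3′ UTR of that length, 66.6% had a signal, so the long-ended members show no excess. In 15 members the annotation stopped within 10 bases of the stop codon, so no stem-loop could be searched there and reads from their 3′ UTR would count as outside genes.

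The sites below are those of the members on which the results turn, written 5′ to 3′ as DNA with the 16 stem-loop bases in capitals, from GENCODE M21 transcripts on GRCm38. The same 16 bases as in Hist1h1c were found in 24 of the 42 members, and Hist1h4i carries a variant shared by 2 members. All 6 sites match the consensus, although the first 4 genes also have a long annotated end and the last 2 do not.
Hist1h1c (chr13:23739507-23739532, plus strand): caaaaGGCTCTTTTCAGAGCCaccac
Hist1h1e (chr13:23621777-23621802, minus strand): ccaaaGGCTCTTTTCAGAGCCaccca
Hist3h2a (chr11:58955167-58955192, plus strand): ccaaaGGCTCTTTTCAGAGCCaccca
Hist1h4i (chr13:22040961-22040986, minus strand): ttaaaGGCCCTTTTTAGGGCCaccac
Hist1h2ag (chr13:22042478-22042503, minus strand): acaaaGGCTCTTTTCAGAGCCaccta
Hist1h2ae (chr13:23570663-23570688, minus strand): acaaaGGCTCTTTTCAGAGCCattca

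In Hist1h1c the stem-loop began 25 bases after the stop codon, a further 840 annotated bases followed it, and AATAAA lay 20 bases before the annotated end. Hist3h2a and Hist1h4i were laid out alike, with 1643 and 330 bases after the stem-loop and a poly(A) signal near the end. Hist1h2ag, with a short end, had 23 bases after its stem-loop and no signal near its end. Hist1h2ae, also short-ended, had 151 bases after its stem-loop and AATAAA 22 bases before its annotated end. The long-ended Hist1h1e had 1153 bases after its stem-loop but no signal near its end, and Hist1h1d and Hist1h2bc, also long-ended, had none either. A poly(A) signal was therefore more frequent among long-ended members (14 of 24) than among the searched short-ended ones, of which 3 had it. It did not mark every member of either class. Hist1h2bc and Hist2h2be, H2B genes with 3′ UTRs of 742 and 2192 bases, had no stem-loop match in their annotated transcripts, and the single Hist1h2bc transcript was spliced. Hist1h1b, an H1 gene, was annotated to its stop codon only.

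The linker histone genes also shared a promoter element. The H1 box, AAACACA on either strand, was found in the 250 bases before the RefSeq start (GRCm38) of 5 of the 6 H1 genes and of 8 of the 59 members with a matched RefSeq promoter, against 6.2% of 32851 promoters of the same length. The octamer ATTTGCAT, on either strand, was found in 12 of the 59, 7 of them H2A and 5 H2B, against 1.6% of promoters. The promoters of the H1 genes with the most counts in each end class, the long-ended Hist1h1c and the short-ended Hist1h1b, follow because both carry the H1 box, given in capitals, while mexAM had the higher Hist1h1c levels and the pools the higher Hist1h1b levels. A match is a description and not a shown binding site.
Hist1h1c promoter (chr13:23738557-23738806, plus strand): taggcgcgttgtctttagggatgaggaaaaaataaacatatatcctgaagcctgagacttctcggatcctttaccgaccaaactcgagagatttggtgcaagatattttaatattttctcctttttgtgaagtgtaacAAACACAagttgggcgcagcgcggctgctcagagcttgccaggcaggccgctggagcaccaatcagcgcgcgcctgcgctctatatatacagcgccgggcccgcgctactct
Hist1h1b promoter (chr13:21780626-21780875, minus strand): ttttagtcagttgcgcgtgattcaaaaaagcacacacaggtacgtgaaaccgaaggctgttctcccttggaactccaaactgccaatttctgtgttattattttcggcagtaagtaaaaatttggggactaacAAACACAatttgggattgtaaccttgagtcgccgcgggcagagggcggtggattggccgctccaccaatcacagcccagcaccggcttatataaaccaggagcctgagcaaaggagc

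On GRCm38, Hist1h1c (ENSMUSG00000036181) lies at chr13:23738808-23740367, Hist1h2bc (ENSMUSG00000018102) at chr13:23684199-23692908, Hist3h2a (ENSMUSG00000078851) at chr11:58954685-58956830, Hist2h2be at chr3:96221119-96223738 and Hist1h1b (ENSMUSG00000058773) at chr13:21779883-21780625.

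The members received 16869 counts in all 16 libraries, and a few long-ended genes held most of them. Hist1h1c alone took 9975 counts (59.1%) and Hist1h2bc 2991 (17.7%), followed by Hist3h2a with 978 and Hist1h1e with 969. These 4 genes made up between 76.9% and 95.2% of the member counts of each library. At the other end, 10 members had no count in any library and 24 had fewer than 10 counts in all. Long-ended members held 84.3% to 98.3% of the member counts of each library. Sequence sharing also bears on the low members: 31 of the 65 share more than 50% of the 65-base words of their last 300 bases with another gene, so reads from them could be dropped or split in counting. Reads for Hist1h1e are uncertain too, because its last 300 bases lie wholly within same-strand exons of Gm11398 and Hist1h2be. Hist3h2a also overlaps Trim17 on the same strand, but not within its last 300 bases.

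**Figure D1:**
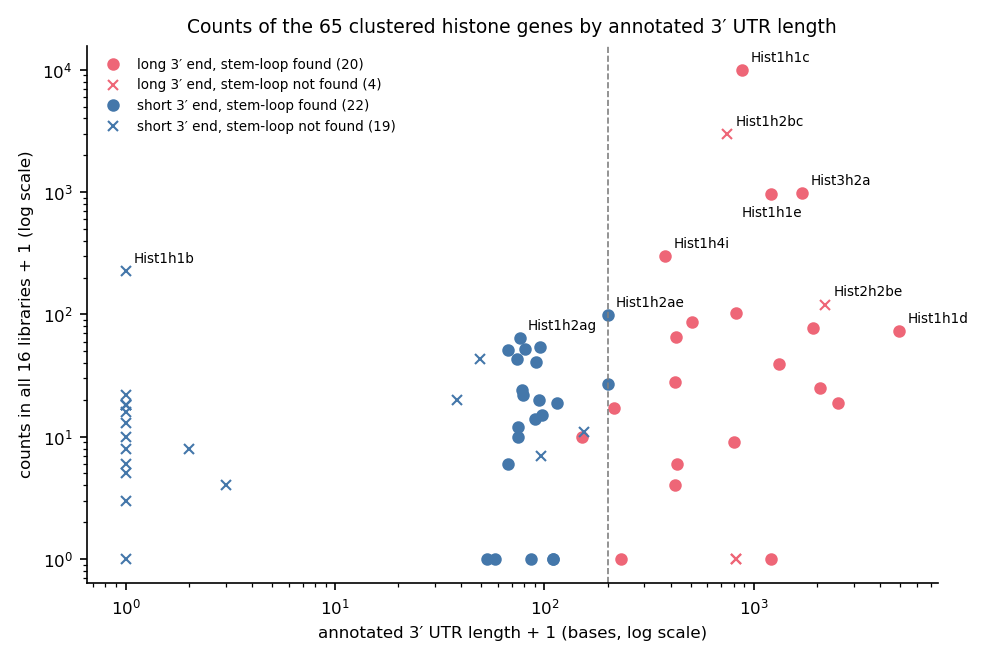
Counts of each of the 65 genes over all 16 libraries (vertical axis, counts + 1, log scale) against the annotated 3′ UTR length (horizontal axis, bases + 1, log scale). Points are genes, colours give the 3′ end class, crosses mark genes with no stem-loop match, and the dashed line is the 200-base limit (1 spliced gene left of it counts as long-ended); the 4 genes with the most counts all lie to its right, and Hist1h1b, with 225 counts, is the highest short-ended gene.

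Within divergent gene pairs, which share the DNA between their starts, captured levels were uneven. Of 12 neighbouring pairs transcribed away from each other within 1000 bases, the pair Hist1h2ac and Hist1h2bc, 250 bases apart, had 24 and 2991 counts. Hist2h2ac and Hist2h2be, 238 bases apart, had 53 and 119. The short-ended H2A and H2B genes Hist1h2ag and Hist1h2bj, 269 bases apart, had 63 and 50.

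Summed over all members, captured histone ends were most abundant in the single-mouse alveolar macrophage cultures. The sum was 1357, 900.7 and 1621 CPM in mexAM of mice 1, 2 and 4, against 295.6, 234.4 and 286.3 in BALF of the same mice. PLF had 330.3, 454.8 and 550.5 CPM and BMDM 342.3, 275.0 and 388.6. The pools had 457.6 and 492.9 CPM at the earlier passage and 658.2 and 739.1 at the later one, below every mexAM library. The number of members with at least 1 count was 43 to 48 in mexAM, 17 to 31 in BALF, PLF and BMDM, 23 and 27 in the earlier and 45 and 49 in the later pool libraries, and these numbers also move with depth.

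The types did not move as 1 block. H1 genes contributed the largest part in every library, from 43.9% of member counts in BALF of mouse 1 to 76.5% in PLF of mouse 2. H1 was 880.3 ± 339 CPM in mexAM (mean ± SD, n = 3), against 131.6 ± 25 in BALF, 337.1 ± 84.9 in PLF and 178.8 ± 37.8 in BMDM. H2B was also highest in mexAM, with 300.5 ± 59 CPM, but PLF was its lowest group with 49.6 ± 7.9, below BMDM with 60.32 ± 21.6 and BALF with 95.15 ± 21.7. H2A had another order: it was highest in BMDM, at 84.02 ± 12.2 CPM, then 58.47 ± 14.4 in the later pool passages (n = 2), 56.61 ± 15.6 in mexAM, 39.32 ± 4.35 in the earlier pool passages (n = 2), 37.47 ± 12.3 in PLF and 17.86 ± 2.37 in BALF. The later pools and mexAM, and the earlier pools and PLF, lay within their spread. Single genes held most of the highest H1, H2A and H2B sums. In mexAM, Hist1h1c was 844.5 CPM of the H1 mean and Hist1h2bc 281.8 of the H2B mean. Hist3h2a was 80.18 CPM of the H2A mean in BMDM but 18.06 in the later pool passages. The top rank of BMDM for H2A therefore rests on Hist3h2a and does not describe the other H2A genes. H4 was 42.03 ± 11.4 CPM in mexAM and 11.12 ± 5.2 in BMDM. H3 ends had only 1, 1 and 3 counts in the BMDM libraries (1.003 ± 0.731 CPM) and reached 13.59 ± 2.78 CPM in mexAM and 17.95 ± 4.52 in the later pool passages (n = 2). No member sum was tested, and these differences are given as a description.

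**Figure D2:**
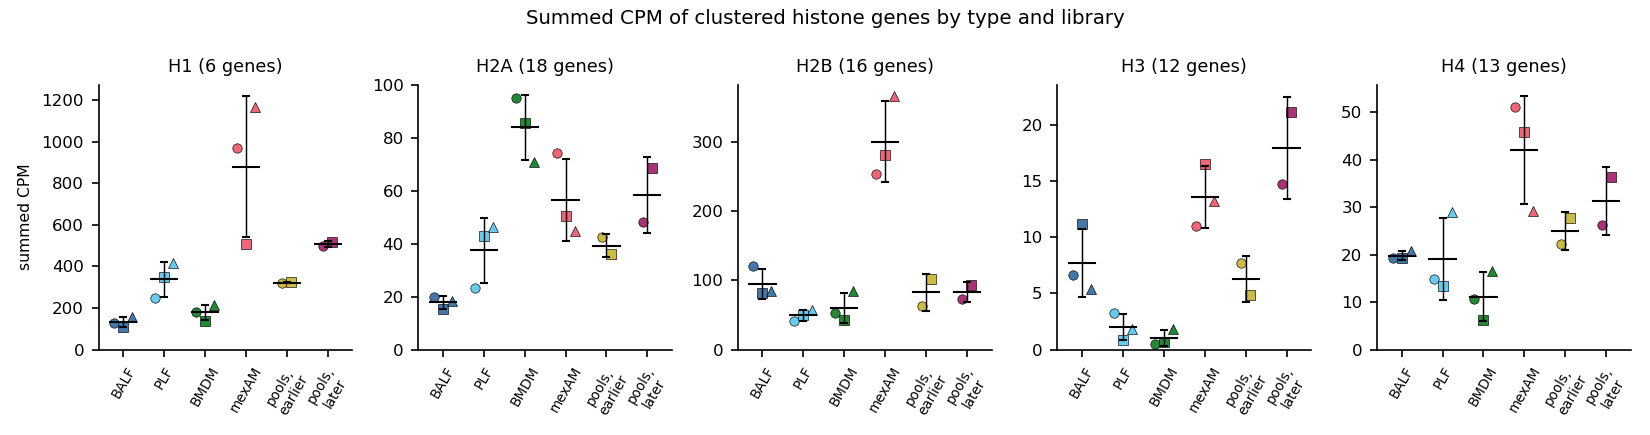
Summed CPM of the members of each histone type in each library (points; circles, squares and triangles are mouse or pool 1, mouse or pool 2, and mouse 4), with the group mean (bar) and SD (whiskers), n = 3 for BALF, PLF, BMDM and mexAM and n = 2 for each pool passage. H1, H2B and H4 have their highest means in mexAM, H2A in BMDM and H3 in the later pool passages; the vertical scales differ.

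Single genes were tested with edgeR on all genes together, and a gene is called changed where the p-value adjusted over all genes by the Benjamini-Hochberg method was under 0.05. Only 6 of the 65 members passed the filter on low counts in the fit of BALF, PLF, BMDM and mexAM, all of them long-ended, and 12 of 65 passed in the fits that include the pools. Counts of calls below are therefore counts of these few genes, and they say nothing of the members that could not be tested.

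The first comparison asks how alveolar macrophages after culture differ from fresh lung lavage cells of the same mice. Hist1h1c, a linker histone gene, was 935, 473 and 1130 CPM in mexAM of mice 1, 2 and 4 and 111, 96.4 and 129 in BALF. The groups did not overlap, and the ratio within a mouse was 8.41, 4.91 and 8.73. The log2 change was 2.69 ± 0.34 (SE; edgeR adjusted p = 2.94e-05). Hist1h2bc, an H2B gene, was 233, 258 and 354 CPM in mexAM against 115, 79.1 and 74.1 in BALF, and the groups did not overlap (log2 change 1.43 ± 0.28, edgeR adjusted p = 0.00119). Hist3h2a, the H2A gene of the chromosome 11 cluster, was 56.3, 35.5 and 34.2 CPM in mexAM against 13.8, 13.2 and 13.9 in BALF, a log2 change of 1.40 ± 0.32 (edgeR adjusted p = 0.00365). All 3 genes were higher in mexAM in each of the 3 mice, and all 3 remained called when any 1 library of the comparison was left out. They were 3 called higher and 0 lower of 6 tested, and over all genes 15.2% were called higher and 14.8% lower. Without mexAM of mouse 4 the count was 5, since Hist2h2be and Hist1h4c were then called as well. Sums over 4 lung epithelial and 4 red cell markers were 36.64 to 55.57 and 33.64 to 626.7 CPM in BALF and at most 0.487 and 4.07 in mexAM, respectively. The 5 T cell markers summed to 155.6 to 212.1 CPM in BALF and at most 1.95 in mexAM, nearly all of it Cd2 (155, 212 and 204 CPM in BALF), while Cd3d and Cd3g had no count in either group. The part of other cells in these differences was not tested. Hist2h2be passed the threshold when mouse was added as a block (log2 change 2.27, edgeR adjusted p = 0.0449), but it had only 2 counts in the 3 BALF libraries.

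Against BMDM, which were also grown in culture, mexAM were higher in some members and lower in others. Hist1h1c was 147, 93.3 and 172 CPM in BMDM, below all mexAM libraries, and differed by 2.69 ± 0.34 on the log2 scale (edgeR adjusted p = 8.05e-06). Hist1h2bc was 34.8, 32.2 and 72.3 CPM in BMDM, a log2 difference of 2.67 ± 0.30 (edgeR adjusted p = 1.34e-06). Hist1h4i, an H4 gene, was 19.7, 15.1 and 18.5 CPM in mexAM and 6.28, 5.49 and 6.13 in BMDM, a log2 difference of 1.63 ± 0.38 (edgeR adjusted p = 0.00187). The opposite direction was seen for 2 genes outside the chromosome 13 cluster. Hist2h2be was 3.48, 3.41 and 2.06 CPM in mexAM and 16.9, 8.91 and 9.19 in BMDM, a log2 difference of -1.91 ± 0.43 (edgeR adjusted p = 0.00151). Hist3h2a was 92.8, 80.9 and 66.8 CPM in BMDM, also above every mexAM library, with a log2 difference of -0.86 ± 0.27 (edgeR adjusted p = 0.016). The call of Hist3h2a was lost without BMDM of mouse 1, mexAM of mouse 2 or mexAM of mouse 4 (edgeR adjusted p = 0.07, 0.0557 and 0.0789). In all, 3 members were called higher and 2 lower, beside 21.5% and 23% of all genes.

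Against PLF, 3 members were called higher in mexAM and none lower, beside 28.4% and 29.6% of all genes. Hist1h2bc was 29.9, 41 and 46.8 CPM in PLF, the lowest group for this gene, and the log2 difference was 2.88 ± 0.30 (edgeR adjusted p = 5.28e-07). Hist1h1c was 167, 321 and 392 CPM in PLF, and the log2 difference was 1.57 ± 0.32 (edgeR adjusted p = 0.000651). Hist1h4i was 3.89, 8.92 and 13.6 CPM in PLF, all below mexAM, with a log2 difference of 1.05 ± 0.37 (edgeR adjusted p = 0.0217). This last call was lost without mexAM of mouse 1, PLF of mouse 1 or PLF of mouse 2 (edgeR adjusted p = 0.0574, 0.105 and 0.0543).

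**Figure D3:**
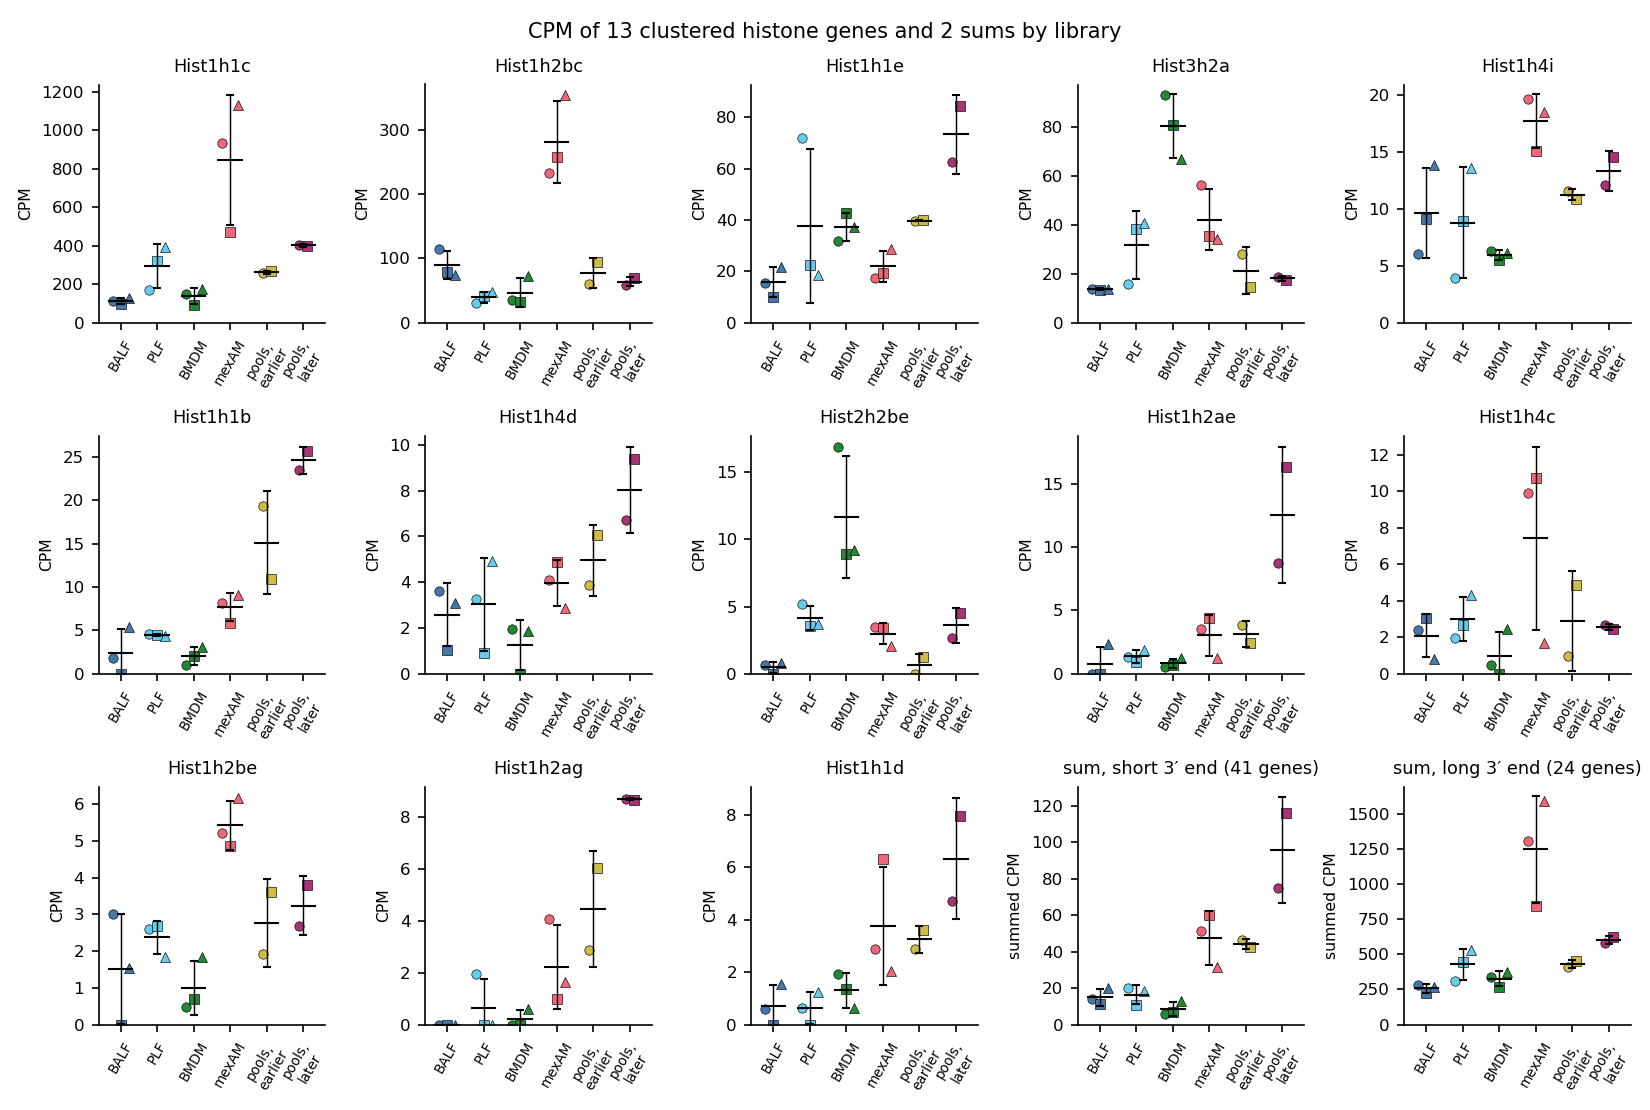
CPM of the 12 members with the highest mean level and of Hist1h1d, with the sums over short-ended and long-ended members (points are libraries, shaped by mouse or pool; bars are group means and whiskers SD, n = 3 for single-mouse groups and n = 2 for each pool passage). Hist1h1c and Hist1h2bc peak in mexAM, Hist3h2a and Hist2h2be in BMDM, and Hist1h1b, Hist1h2ae and Hist1h2ag in the later pool passages; the vertical scales differ.

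Among the 3 cell sources other than mexAM, Hist3h2a and Hist2h2be set BMDM apart and Hist1h2bc set BALF apart. Hist3h2a was lower in BALF than in BMDM by a log2 difference of -2.26 ± 0.32 (edgeR adjusted p = 2.25e-05), with 13.2 to 13.9 CPM against 66.8 to 92.8. Hist2h2be had 2 counts in BALF and 63 in BMDM, so BMDM was 24.1-fold higher with a 95% counting interval of 6.4 to 203 (edgeR adjusted p = 9.54e-05). Hist1h2bc was higher in BALF than in BMDM by 1.24 ± 0.30 on the log2 scale (edgeR adjusted p = 0.0032). These 1 higher and 2 lower calls stand beside 18.2% and 19.3% of all genes, and all 3 were kept without any 1 library. BMDM also carried the highest neutrophil marker level, and the part of other cells in these differences was not tested.

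BALF differed from PLF in 4 tested members, 1 higher and 3 lower, beside 19.5% and 20.8% of all genes. Hist1h2bc was higher in BALF by 1.45 ± 0.30 (log2; edgeR adjusted p = 0.00103). Hist1h1c was lower by -1.12 ± 0.33 (edgeR adjusted p = 0.0127), a call lost without BALF of mouse 2 or PLF of mouse 4 (adjusted p = 0.0547 and 0.0686). Hist2h2be had 2 counts in BALF and 18 in PLF, a ratio of 8.29 with a 95% counting interval of 1.98 to 73.7 (edgeR adjusted p = 0.0125). Hist3h2a was lower in BALF by -0.93 ± 0.34 (edgeR adjusted p = 0.0354), and it was not called when any of the BALF libraries, or PLF of mouse 2 or 4, was left out (edgeR adjusted p from 0.0642 to 0.171). Without BALF of mouse 2 the count fell to 2, Hist1h2bc and Hist2h2be. The B cell and mast cell markers that only PLF carries at over 1000 CPM move with this comparison, and their part in it was not tested.

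Between BMDM and PLF, 2 members were called higher in BMDM and 1 lower, beside 18.4% and 18% of all genes. Hist3h2a was 15.6, 38.3 and 40.7 CPM in PLF and higher in BMDM by 1.33 ± 0.29 (log2; edgeR adjusted p = 0.0014). Hist2h2be was 5.19, 3.57 and 3.7 CPM in PLF and higher in BMDM by 1.44 ± 0.43 (edgeR adjusted p = 0.015), a call lost without BMDM of mouse 1 or PLF of mouse 2 or 4 (adjusted p = 0.121, 0.0573 and 0.0704). Hist1h1c was lower in BMDM by -1.12 ± 0.32 (edgeR adjusted p = 0.0135), but the highest BMDM library (172 CPM) exceeded the lowest PLF library (167 CPM), and the call was lost without BMDM of mouse 2 or PLF of mouse 4 (edgeR adjusted p = 0.0639 and 0.0717). Without PLF of mouse 4 only Hist3h2a, 1 member, was called.

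PLF of mouse 1 stood apart for Hist1h1e, another linker histone gene. Its level was 72 CPM there against 22.3 and 18.5 in the other PLF libraries. Rn7sk, an abundant RNA with no poly(A) tail, was 125 CPM in the same library against 30.3 and 12.3, and whether these 2 values are related was not tested. In the reported fit Hist1h1e was called in none of the 6 comparisons among single-mouse groups. It was called lower in BALF than in PLF with scaling by library totals, without the low-count filter, or without PLF of mouse 2 or 4 (edgeR adjusted p = 0.0387, 0.00521, 0.0486 and 0.0251). It was also called lower in BALF than in BMDM under the first 2 of these settings (edgeR adjusted p = 0.0444 and 0.0111), and lower in mexAM than in PLF without the filter or without PLF of mouse 4 (edgeR adjusted p = 0.0251 and 0.0318). Its BMDM minus PLF difference turned from -0.10 to 0.87 (edgeR adjusted p = 0.0392) without PLF of mouse 1.

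Hist1h1c was the member of highest level in the pool cultures as in mexAM, but several members lay at other levels in the pools. Hist1h2bc was 60.7 and 94.2 CPM at the earlier and 58.4 and 69.3 at the later passages of pools 1 and 2, below all mexAM libraries. With the passages of a pool summed, the pools were lower by -2.05 ± 0.32 on the log2 scale (edgeR adjusted p = 0.00741, n = 2 pools against 3). This was the only member called of 12 tested, beside 0.179% of all genes called lower and 0.519% called higher, and the call was lost without pool 1 or pool 2 (edgeR adjusted p = 0.143 and 0.0807), each with 1 pool left and its spread taken from the other groups. Hist1h1c was 257 and 268 CPM at the earlier and 405 and 397 at the later passages, again below all mexAM libraries, with a log2 difference of -1.22 ± 0.35 that did not pass (edgeR adjusted p = 0.106) but did in DESeq2 (adjusted p = 0.035) and in edgeR without mexAM of mouse 2 (adjusted p = 0.0224). Hist1h1b was 19.3 and 10.9 CPM at the earlier and 23.5 and 25.7 at the later passages against 8.13, 5.84 and 9.06 in mexAM, a log2 difference of 1.52 ± 0.40 that did not pass (edgeR adjusted p = 0.0739). Hist1h1e was 39.5 and 39.9, then 62.4 and 84.2 CPM, against 17.4, 19.5 and 28.8 in mexAM, a log2 difference of 1.54 ± 0.44 that did not pass either (edgeR adjusted p = 0.109). Without the filter on low counts, edgeR called 5 members in this comparison, adding Hist1h1c (adjusted p = 9.21e-05), Hist1h1e (2.44e-05), Hist1h1b (0.00932) and Hist3h2a (0.0112) with the same directions. Hist1h1c thus lay below and Hist1h1b above mexAM with no overlap between libraries, but neither was among the 74 of 10602 genes called. How many of all genes separate in this way between so few samples was not counted. Hist1h1b had also passed the low-count filter only in the fits that include the pools.

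Compared with BALF, 6 of the 12 tested members were called higher in the pools and none lower, beside 13.6% and 12.4% of all genes. Of these 6, Hist1h1b, Hist1h2ag, Hist1h2ae and Hist1h1d had not passed the low-count filter without the pools, so they were tested only through the group in which they are high, and the count of calls supports no direction of the members as a whole. With only the earlier passage of each pool, 2 were called, Hist1h1b and Hist1h1c. Hist1h1c was higher by 1.46 ± 0.34 on the log2 scale (edgeR adjusted p = 0.00457). Hist1h1b was 1.8, 0 and 5.4 CPM in BALF, below every pool library, and differed by 2.9 ± 0.51 (edgeR adjusted p = 0.000347). Hist1h1e was 15.6, 10.1 and 21.6 CPM in BALF and differed by 1.79 ± 0.48 (edgeR adjusted p = 0.0122). The other 3 had few BALF counts. Hist1h2ag had 46 counts in the pools and 0 in BALF, at least 9.69-fold higher when 3 counts are taken as the floor over the 3 BALF libraries together (edgeR adjusted p = 0.00289). Hist1h2ae had 66 counts against 3, a ratio of 13.9 with a 95% counting interval of 4.56 to 69.2 (edgeR adjusted p = 0.00393). Hist1h1d, a linker histone gene, had 36 against 3, a ratio of 7.59 with an interval of 2.4 to 38.5 (edgeR adjusted p = 0.0273), and it was not called in DESeq2 (adjusted p = 0.0678). Hist1h1c, Hist1h1b and Hist1h2ag kept their calls without any 1 BALF library or pool. Without a pool that arm holds 1 sample, which is assumed to vary like the other groups. Without pool 2, Hist1h1e, Hist1h2ae and Hist1h1d lost theirs (edgeR adjusted p = 0.102, 0.0717 and 0.215), which left 3 calls, and Hist1h1e and Hist1h1d also without BALF of mouse 1 (adjusted p = 0.0522 and 0.105) or mouse 2 (adjusted p = 0.0571 and 0.0864). The 2 comparisons with mexAM and with BALF share the pool libraries and are not independent.

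**Figure D4:**
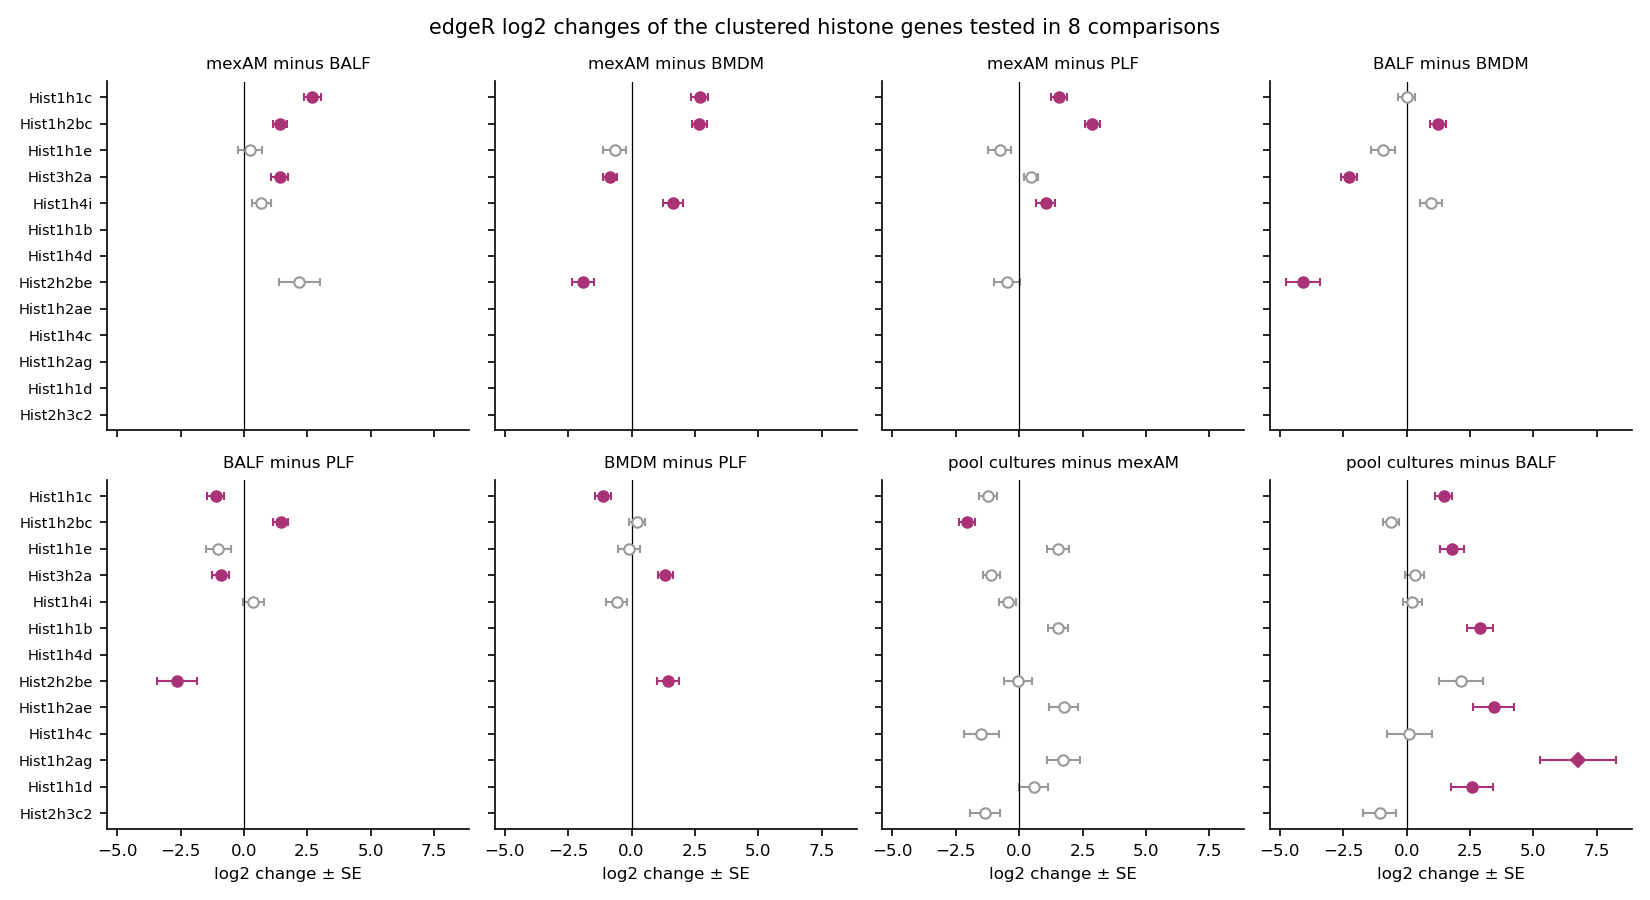
Log2 change ± SE from edgeR for each member tested (rows, ordered by mean level) in 8 comparisons; filled points were called at an adjusted p under 0.05, open points were not, blank rows were not tested, and the diamond marks a fitted value for a gene with no count in one group, which is no bound. Hist1h1c and Hist1h2bc lie to the right in the 3 comparisons of mexAM with other single-mouse groups and to the left in pools minus mexAM, where Hist1h1c was not called.

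From the earlier to the later passage, no member was called of 12 tested, and over all genes 0.0095% (1 of 10527) were called higher and 0% lower. In edgeR 2 of the 12 had an unadjusted p under 0.05, as did 9% of all genes, and in DESeq2 0 of the 12 were called and 0 had an unadjusted p under 0.05. Hist1h1c was 1.57 and 1.48 times as high at the later as at the earlier passage in pools 1 and 2, Hist1h1e 1.58 and 2.11 times, and Hist1h2ae 2.26 and 6.74 times. Hist1h2bc was 0.962 and 0.736 times as high. Counts behind the low genes are few: Hist1h2ae had 4 and 2 counts at the earlier passages. The short-ended H3 gene Hist1h3c, picked after its values were seen and not tested, had 0 counts at the earlier passages. At the later passages, whose libraries were deeper, it had 15 (3.35 and 3.47 CPM). The short-ended Hist1h4n went the other way, at 0.696 and 0.646 times its earlier level.

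Dividing state was described with a list of 20 genes of mitosis and G2 phase and a list of 26 genes of DNA replication. The mitosis list summed to 778.6 to 1157 CPM in mexAM, 298.3 to 539.5 in BALF, 297.2 to 394.2 in PLF and 204.3 to 647.8 in BMDM. The pools reached 1746 and 1358 CPM at the earlier and 3032 and 3082 at the later passages, above every other library. In mexAM against BALF, 10 of the 20 mitosis genes were called higher and 1 lower (median log2 change 1.30, against 0.01 over all genes), and 12 of 25 tested replication genes were higher and 0 lower (median 1.14). Mki67, a proliferation marker, was 105.2 ± 10.3 CPM in mexAM and 37.22 ± 16.3 in BALF (n = 3 each; log2 change 1.29 ± 0.29, edgeR adjusted p = 0.00267). In pools against mexAM, 6 mitosis genes were called higher and 0 lower (median 1.37), among them Mki67 at 253.4 ± 23.3 CPM with passages summed (n = 2), and 0 of 26 replication genes were called (median 0.85). By passage Mki67 was 192 and 79.7 CPM at the earlier and 268 and 324 at the later passages, so the earlier passage of pool 2 lay below every mexAM library (94.4 to 115 CPM). Against BALF, 18 of 20 mitosis genes and 24 of 26 replication genes were higher in the pools and none lower. The mitosis level and Hist1h1c thus rank mexAM and the pools in opposite order.

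The sums of short-ended and of long-ended members were then set beside the mitosis list. The 41 short-ended genes summed to 51.11, 59.85 and 31.3 CPM in mexAM, 13.82, 11.16 and 20.07 in BALF, 20.12, 10.7 and 18.49 in PLF and 5.801, 6.857 and 12.87 in BMDM. The pools had 46.24 and 42.28 CPM at the earlier and 75.14 and 116.1 at the later passages. The short-ended share of member counts was 1.93% to 6.65% in mexAM, 8.58% and 10.1% in the earlier and 11.4% and 15.7% in the later pool libraries. Over the 16 libraries, Pearson's r of log2(CPM + 1) with the mitosis sum was 0.91 for the short-ended and 0.57 for the long-ended sum, and 0.85 and 0.62 without the 2 libraries farthest from the median mitosis level. Spearman's rho with the mitosis sum was 0.86 for the short-ended sum and 0.68 for the long-ended sum. The long-ended sum is mostly Hist1h1c, Hist1h2bc, Hist3h2a and Hist1h1e: rho was 0.66 for these 4 genes together and 0.84 for the other 61 members. Single genes of both classes overlapped. Among the 9 short-ended genes of the 20 with the highest mean level, rho ran from 0.38 (Hist1h4n) to 0.90 (Hist1h1b), with 0.83 for Hist1h2ae, 0.82 for Hist1h2ag, 0.49 for Hist1h1a and 0.41 for Hist2h2ac. Among the 11 long-ended genes it ran from -0.32 (Hist2h2be) to 0.72 (Hist1h1d), with 0.71 for Hist1h4d, 0.70 for Hist1h1c, 0.67 for Hist1h4i, 0.64 for Hist1h2be, 0.44 for Hist1h2bc and -0.18 for Hist3h2a. These coefficients only describe 16 points that share groups, mice, pools and depth, and the difference between the 2 sums was not tested. Hist1h1b and Hist1h2ae were the short-ended genes with the most counts, and the sum was also taken without them. It was then 36.71 ± 14.5 CPM in mexAM and 58.56 ± 22.1 at the later passages (n = 2), against 11.84 ± 0.612 in BALF. At the earlier passages it was 26.06 ± 4.15 CPM (n = 2). That mean lay below the mexAM mean, although the mitosis sums of the earlier pool libraries were above every mexAM library.

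Across the members with at least 10 counts, the highest group mean fell in the later pool passages for 15 of 25 short-ended genes and 5 of 16 long-ended ones, and in mexAM for 8 of 25 and 8 of 16. BMDM was the highest group for 2 members, PLF for 1 and BALF for none of the 41. The remaining 2 members were highest in the earlier pool passages. Hist1h4d and Hist1h4c, long-ended H4 genes, show the spread among low members: Hist1h4d was 6.71 and 9.36 CPM at the later passages and 2.88 to 4.87 in mexAM, while Hist1h4c was 2.68 and 2.43 CPM there and 9.87, 10.7 and 1.65 in mexAM, so that mexAM of mouse 4 stood apart from the other mexAM libraries. Hist1h2be, a spliced H2B gene, was 5.23, 4.87 and 6.18 CPM in mexAM, above all other libraries (at most 3.81).

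**Figure D5:**
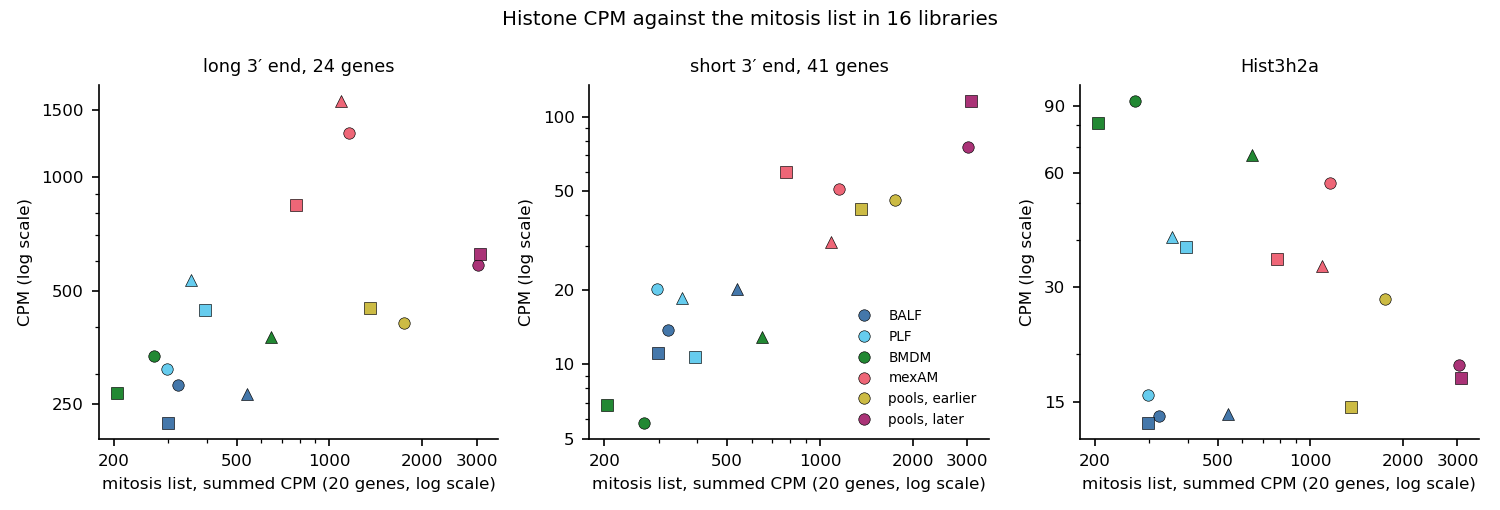
CPM of the long-ended members, of the short-ended members and of Hist3h2a (vertical axes, log scale) against the summed CPM of the mitosis list (horizontal axis, log scale) in the 16 libraries, coloured by group and shaped by mouse or pool. The mexAM libraries lie highest for the long-ended sum, the later pool passages (75.14 and 116.1 CPM) highest for the short-ended sum, and BMDM highest for Hist3h2a.

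Other histone genes that are not clustered make tailed transcripts, many of them outside S phase as well. Of 11 such genes, 9 were tested, and in mexAM against BALF 2 were called higher and 0 lower (median log2 change 0.19). One was H1f0, a linker histone gene of slowly dividing and differentiated cells, at 112.5 ± 59.3 CPM in mexAM and 6.418 ± 3.98 in BALF (edgeR adjusted p = 0.000117). H1f0 was also 92.04 ± 18.1 CPM in BMDM and 25.32 ± 16.5 in PLF, so its order over the groups was not that of Hist1h1c, which was 137.4 ± 40.1 in BMDM and 293.5 ± 115 in PLF. Cenpa, the centromere H3, was 26.61 ± 4.19 CPM in mexAM and 89.52 ± 6.35 in the pools (n = 2; edgeR adjusted p = 0.00141), and it was the 1 gene of 9 tested called between them. By passage it was 31.8 and 59.2 CPM at the earlier and 122 and 104 at the later passages.

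Genes that act on histone transcripts and proteins were tested as background to the members. Slbp, the stem-loop binding protein, was 10.01 ± 3.04 CPM in mexAM, 10.76 ± 2.09 in BALF, 8.638 ± 0.934 in BMDM and 18.01 ± 9.7 in PLF, and of the 8 comparisons between cell groups only BMDM minus PLF was called (lower in BMDM, edgeR adjusted p = 0.0294). The PLF mean rests on mouse 1, with 29.2 CPM against 12.5 and 12.3. Of 14 tested genes of histone transcription and 3′ processing, 2 were called higher in mexAM than in BALF and 1 lower (median log2 change 0.08); the higher ones were Cpsf3, the endonuclease of the cleavage complex, at 51.17 ± 6.39 against 17.04 ± 3.35 CPM, and Ncbp1, a cap-binding subunit, at 61.72 ± 12.7 against 24.51 ± 5.46. Npat, a coactivator of the clustered genes, was lower, at 21.17 ± 2.71 against 35.28 ± 4.12 CPM. Of 18 histone chaperones, 6 were higher and 1 lower (median 0.17), with Asf1b at 63.8 ± 11.7 CPM in mexAM, 18.13 ± 0.766 in BALF and 145 ± 18.7 in the pools (n = 2). Between pools and mexAM, 0 of the 14 processing genes and 0 of the 18 chaperones were called.

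RNAs that carry no poly(A) tail were followed as a measure of how far untailed RNA was captured. A list of 6 such RNAs summed to 12.36 to 35.52 CPM in mexAM, 44.64 to 70.23 in BALF, 31.91 to 55.77 in BMDM, and 16.03, 32.11 and 143.4 in PLF, the highest being the library of mouse 1. The pools had 17.34 and 59.19 CPM at the earlier and 34.22 and 53.73 at the later passages of pools 1 and 2, so these sums overlapped those of mexAM, BALF and BMDM. Within mexAM the untailed sum and the short-ended member sum were both highest in mouse 2 (35.52 and 59.85 CPM) and both lowest in mouse 4 (12.36 and 31.3 CPM). Both sums also ranked the mice alike in BALF and in BMDM, highest in mouse 4, and in PLF both were highest in mouse 1. Between BALF and mexAM the order was opposite, with untailed means of 56.51 and 22.15 CPM and short-ended means of 15.01 and 47.42. BMDM lay below BALF in both (43.17 and 8.51 CPM). Whether untailed RNA takes part in the member values was not tested. Rn7sk was called lower in mexAM than in BALF, at 8.025 ± 3.19 against 40.39 ± 15.1 CPM (edgeR adjusted p = 0.0244).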

How the data were processed

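RNA was measured in 16 libraries, 3 each of BALF, PLF, BMDM and mexAM (mice 1, 2 and 4) and 4 of cultured pools. Per the labels' protocols, QuantSeq 3′ FWD libraries with a UMI module were made from 150 ng of total RNA with 15 amplification cycles and read as 65-base single ends. The authors deposited unnormalized gene counts for each library; the build was GRCm38/mm10 per the submitters' processing notes, while aligner, counter, annotation release, strand use and UMI collapse were not identified. If UMIs were not collapsed, a count is a read and not a molecule; counting intervals cover counting error only.

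Genes were named from GENCODE M21, and lines naming no gene were left out of library totals. Tests used edgeR 4.0.16 in R 4.3.3 (quasi-likelihood, robust, TMM scaling, filterByExpr, Benjamini-Hochberg over all genes, threshold 0.05), tested on simulated data. One fit held the 12 single-mouse libraries (10011 genes), another added the pools with passages summed (10602 genes), and the last held all 16 libraries for passage (10527 genes). Alternatives were DESeq2 1.42.0, other scaling, no filter, a mouse block, the earlier passage only and each library left out. Correlations were taken on log2(CPM + 1).

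Same-numbered libraries were taken as the same mouse, per the labels. Correlations of deviations between same-numbered libraries ran from -0.118 to 0.22 (median -0.0207), 2 of 18 over 0.1. No more is stated on how separate the samples were, so p-values measure the spread between these samples.

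The members and gene lists were chosen with earlier results of these data known. Named genes were the 12 members of highest mean level, every member called in any comparison, and, from the lists, called genes with the largest changes and at least 10 CPM, with Mki67 and Slbp; Top2a, Mcm6 and Pcna were also followed. Examples such as Hist1h3c were chosen after their values were seen.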

Additional observations from a re-analysis of the deposited data

How the results depend on the processing

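The number of members called stayed within 1.5 times the reported count under 48 of 54 alternatives that kept every replicate. Without the filter on low counts, 17 members were called in mexAM minus BMDM (5 with the filter) and 8 in mexAM minus PLF (3). This setting called 5 in BALF minus BMDM (3) and 5 in pools minus mexAM (1), and it also tests the low members. The genes added in pools minus mexAM, Hist1h1c, Hist1h1e, Hist1h1b and Hist3h2a, had however been tested with the filter too. Their adjusted p-values changed, and the cause was not tested. The same holds for Hist1h1e in BALF minus BMDM. The share of all genes called at this setting is not given. DESeq2 called 2 in pools minus mexAM (1), adding Hist1h1c; the cause was not tested. With the earlier passage only, 2 were called in pools minus BALF (6), where fewer counts entered.

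Leaving out 1 library or pool at a time gave 3 to 5 called members in mexAM minus BALF, 4 to 7 in mexAM minus BMDM, 2 to 4 in mexAM minus PLF, 3 to 4 in BALF minus BMDM, 2 to 4 in BALF minus PLF, 1 to 4 in BMDM minus PLF, 0 to 2 in pools minus mexAM, 3 to 6 in pools minus BALF, and 0 between passages. One direction reversed: the log2 change of Hist1h1e in BMDM minus PLF (-0.10) ran from -0.46 without PLF of mouse 4 to 0.87 without PLF of mouse 1. Of the log2 changes recomputed with every replicate kept, 397 kept direction and side of the threshold, 14 passed it newly and 2 no longer passed it.

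With mouse as a replicate block, 4 members were called in mexAM minus BALF in place of 3, adding Hist2h2be (log2 change 2.27); the block changed no other call of a member, and the passage comparison had 0 calls with pool as the block.

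Scaling by library totals alone moved the median log2 change of all genes from 0.01 to 0.22 in mexAM minus BALF, from -0.03 to -0.32 in BALF minus BMDM, from -0.01 to -0.27 in BALF minus PLF and from 0.00 to 0.20 in pools minus BALF. The share of calls that were higher then went from 50.6% to 67.4%, 48.5% to 30.5%, 48.4% to 33.1% and 52.4% to 67.7%. In pools minus mexAM, DESeq2 gave 54.5% higher of its 187 calls, against 74.3% of 74, and between passages it called 15 genes higher and 17 lower, against 1 and 0. The reported changes are relative to the TMM scaling.

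Summed levels moved by more than 1 SD with TMM-scaled totals for H1 in the earlier (326.1 CPM) and later (487.6 CPM) pool passages, and in BALF for H2A (20.51 CPM) and H4 (22.68 CPM). Without Gm42418 and mitochondrial ribosomal RNA in the totals, H1 was 166.1 CPM in BALF, 217.6 in BMDM, 379.5 in the earlier and 601.5 in the later pools. H2A was then 22.44 CPM in BALF, 102.1 in BMDM and 46.3 in the earlier pools, H2B 119.2 in BALF and 98.22 in the later pools, and H4 24.81 in BALF and 29.42 in the earlier pools. These totals are smaller by construction. Depth limits the low members: 1 count was 0.347 to 1.208 CPM, and 52 of 65 members were tested in no fit.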
